A study of Mus musculus with 6 samples.

Results

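The section of a young E4 mouse was compared with the section of a young E3 mouse, each 3 months of age, spot class by spot class. Spots under tissue with at least 1000 UMIs (unique molecular identifiers, each counting 1 captured RNA molecule) of mouse genes were used, which left 2644 spots of the E3 young section and 2243 of the E4 young section, 4887 of the 13332 spots that pass the same rule over all 6 sections of the series. Each spot was put in 1 of 3 classes by its own counts: the Slc17a7 class, where Slc17a7 had more UMIs than Slc17a6, the Slc17a6 class, where the order was opposite, and the equal-or-neither class. The question was which E4 to E3 shifts ran through all 3 classes and which stood in 1 class. There was 1 section, and so 1 mouse, on each side: every interval below is a 95% interval that covers counting error only, the spread between mice was not measured, and no test of genotype was possible.

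Both mice were female and homozygous, the E3 mouse for the human APOE3 and the E4 mouse for the human APOE4 targeted replacement allele, in which the coding exon of mouse Apoe has been replaced by the human allele, so that the mouse Apoe promoter drives human APOE in whichever cells it is active. The E3 and E4 alleles are carried by separate targeted lines on the B6.129P2 background, and a difference between the lines elsewhere in the genome cannot be told apart from one due to the allele. The right hemisphere was frozen and a coronal section taken at the level of the dorsal hippocampus, thalamus and hypothalamus, was placed on a Visium slide, a grid of barcoded spots that each cover several cells. The series also holds an aged pair (24 months) and a 5xFAD pair (12 months, APOE mice carrying the 5xFAD transgenes), with 1 section a group. The labels describe the material as non-neuronal brain cells, whereas neuronal genes such as Slc17a7 and Camk2n1 were abundant in both sections.

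Slc17a7 and Slc17a6 encode the vesicular glutamate transporters VGLUT1 and VGLUT2, which load glutamate into synaptic vesicles. Slc17a7 is used mainly by excitatory neurons of cortex and hippocampus and Slc17a6 mainly by those of thalamus, hypothalamus and habenula, while white matter, ventricle linings and GABA neuron territories hold little of either. ApoE is the main lipid carrier of brain, secreted by astrocytes and by reactive microglia, and the E4 allele raises the risk of Alzheimer's disease.

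In the E3 young section 1934 spots fell in the Slc17a7 class, 484 in the Slc17a6 class and 226 in the equal-or-neither class. In the E4 young section the numbers were 1582, 448 and 213. The shares of the Slc17a7 class were 73.1% (71.4% to 74.8%) and 70.5% (68.6% to 72.4%). Those of the Slc17a6 class were 18.3% (16.8% to 19.8%) and 19.97% (18.3% to 21.7%), and those of the last 8.55% (7.51% to 9.68%) and 9.50% (8.31% to 10.8%), with exact binomial intervals in parentheses. The classes formed connected areas, as the map of the spots shows: 87.4% (E3) and 88.2% (E4) of the neighbours of a Slc17a7 spot were of its own class, against 59.6% and 64.6% for a Slc17a6 spot and 27.1% and 27.2% for an equal-or-neither spot. The last class was shallow, with a median of 6846 UMIs per spot in E3 and 6164 in E4, against 13725 and 16734 in the Slc17a7 class and 16082 and 15749 in the Slc17a6 class.

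**Figure D1:**
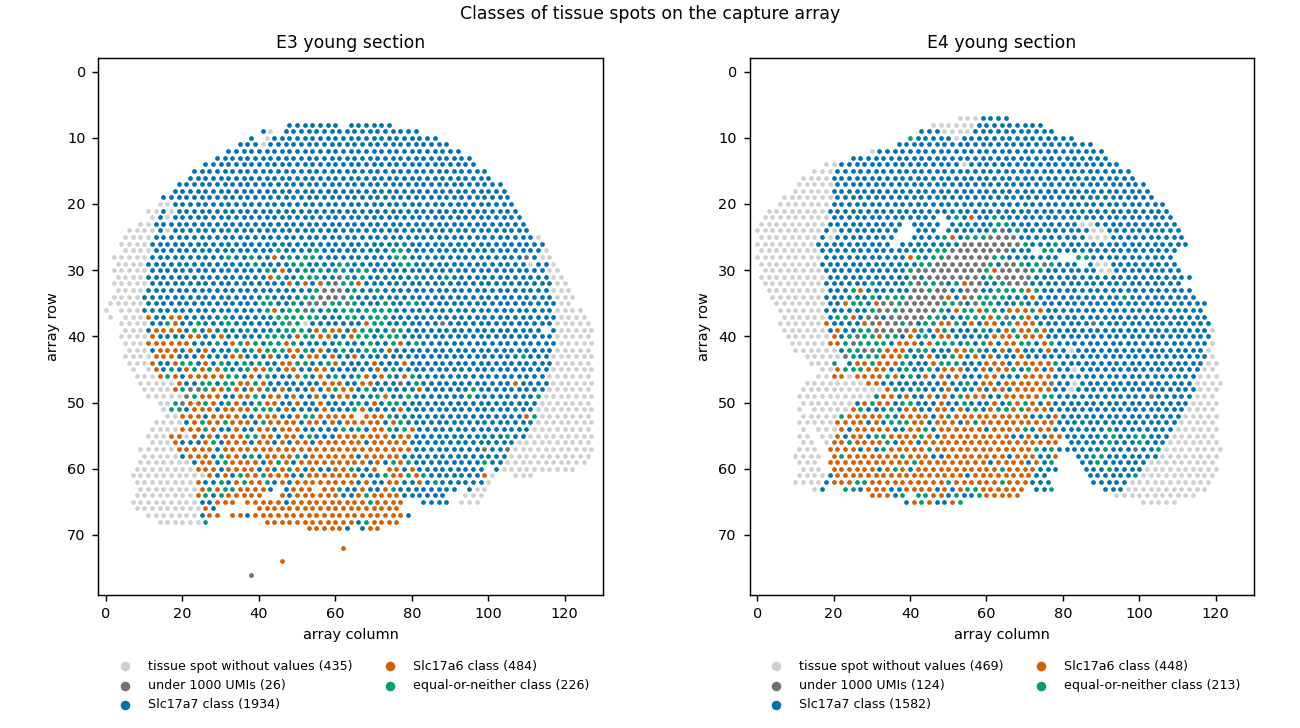
Tissue spots of the E3 young (left) and E4 young (right) sections by array row and column, coloured by class; light grey spots lie in the deposited tissue mask but have no barcode in the matrix, and dark grey spots had under 1000 UMIs. Without values were 435 of the 3105 mask spots of the E3 section and 469 of the 2836 of the E4 section, with 313 of the 469 on the left side of the array.

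Markers that played no part in the rule were set against the labels of the classes. Neurod6, a transcription factor gene of cortical and hippocampal excitatory neurons, had 88.5 CPM (UMIs of a gene scaled to 1000000 mouse UMIs of the class) in the E3 Slc17a7 class and 104 in the E4 one, against at most 21.2 in the other 4 sums. Tcf7l2, a thalamic transcription factor, had 472 and 333 CPM in the Slc17a6 class, against 76.9 and 52.7 in the Slc17a7 class. Mbp, a myelin gene, was highest in the equal-or-neither class, at 3745 and 4038 CPM, against 1610 and 1740 in the Slc17a7 class. Prox1, listed here with the Slc17a7 class for its use in dentate granule cells, went against that, at 19.9 and 21.0 CPM there and 50.9 and 25.8 CPM in the Slc17a6 class. With that exception the markers named followed cortex and hippocampus, thalamus and hypothalamus, and myelin-rich or mixed tissue in both sections, but each class is a mixture of regions and not a cell type.

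Several facts of the sections bear on every ratio below. The 2 libraries held 37220307 (E3) and 36021895 (E4) mouse UMIs in the spots used, and mitochondrial RNA made up between 11.5% and 13.9% of the UMIs of each class. The tissue mask and the barcodes of the matrix overlapped by 75.5% in the E3 and 71.5% in the E4 young section as deposited and by 96.9% and 97.0% once the mask was rotated on its side. Barcodes outside the mask had median UMIs of 467.5 and 1277, with 172 of 518 in E3 and 336 of 519 in E4 at 1000 or more. The mask as deposited was used, with every barcode as an alternative, and the parts of the tissue without values differed between the sections: 14.2% of the left side and 13.8% of the right side in E3 against 20.9% and 11.7% in E4. To see how much of a ratio went with anatomy, spots of both sections were clustered, and CPM was averaged over the same clusters with the same weights in both sections (below, with the same cluster weights). The cluster mix of the 2 sections overlapped by 90.1% in the Slc17a7 class, 61.2% in the Slc17a6 class and 73.7% in the equal-or-neither class. The clusters used held 433 (E3) and 326 (E4) spots of the Slc17a6 class and 163 and 162 of the equal-or-neither class. In every class the ratio and its interval were shifted together, so a call with these weights kept the interval width of the full UMI sums. It does not cover the counting error of the weighted value, and calls kept or lost with these weights are descriptions only. Since a spot holds several cells, fewer cells of a type and less RNA per cell cannot be told apart.

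Human APOE, expressed from the replaced locus, was seen in all 6 sums at similar levels, at 747, 872 and 1012 CPM in the Slc17a7, Slc17a6 and equal-or-neither classes of E3 and 703, 942 and 986 in those of E4. The log2 ratios of E4 over E3 were -0.09 (-0.12 to -0.06), 0.11 (0.06 to 0.16) and -0.04 (-0.13 to 0.06), all far under the 1.5-fold (0.585 on the log2 scale) used for a call. The mouse Apoe row, which can take reads from the parts of the locus that stayed murine, was likewise under the fold in each class, with log2 ratios of 0.19, 0.44 and -0.18. Slc17a7 and Slc17a6 define the classes, and their ratios within a class are given as a description: -0.19 for Slc17a7 in its own class and -0.60 for Slc17a6 in its own.

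A gene was tested in a class where both sections together gave at least 50 UMIs, and called where the ratio was at least 1.5-fold with an interval that left out 0. Of 14365 genes tested in the Slc17a7 class, 185 (1.29%) were called higher and 406 (2.83%) lower in E4. In the Slc17a6 class 454 (3.73%) were higher and 730 (6.0%) lower of 12161. In the equal-or-neither class 240 (2.72%) were higher and 226 (2.56%) lower of 8812. These shares over all tested genes are the background of every list count below. The Slc17a6 class, whose cluster mix differed most between the sections, had the largest share of calls. Its excess of lower calls depended on scaling, since with ratios centred on the median gene (-0.06) 592 genes were higher and 579 lower there. Of the 1966 genes called in any class, 1023 had enough UMIs in all 3 classes for the comparison between classes. An interval of this width leaves out 0 for 5% of unchanged genes by construction, and 224 of the 466 calls of the equal-or-neither class rested on under 100 UMIs.

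Only 31 of the 8809 genes tested in all 3 classes were called the same way in each, 13 higher (0.148%) and 18 lower (0.204%) in E4. The 3 intervals overlapped for 14 of the 31, and at least 1 pair of intervals was apart for the others. Calls in all 3 classes remained for 19 of the 31 with the same cluster weights. The classes come from the same 2 libraries and are not replicates of each other. The higher genes were an acute-phase protease inhibitor (Serpina3n), stress and glucocorticoid-inducible genes (Sgk1, Txnip, Arrdc2), a thin-filament gene known from thalamus (Tnnt1), a growth-associated gene (Bex1), a neuropeptide (Nts) and others. The lower genes were led by hypothalamic hormones (Avp, Oxt, Trh), the choroid plexus gene Ttr, habenular genes (Gng8, Tac2) and Gm47283 and Wdfy1.

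**Figure D2:**
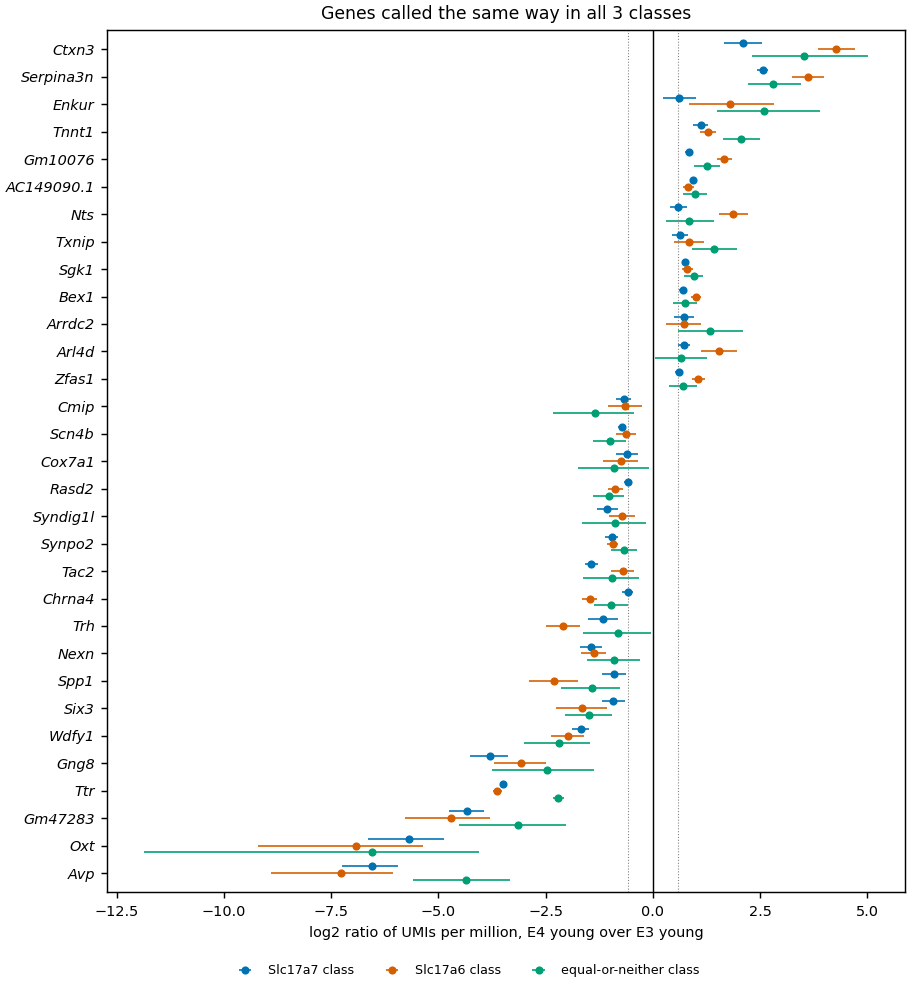
Log2 ratio of E4 young over E3 young for the 31 genes called the same way in all 3 classes, with 95% counting intervals; blue, orange and green points stand for the Slc17a7, Slc17a6 and equal-or-neither classes, and dotted lines mark 1.5-fold. Serpina3n and Ctxn3 lie above 2 in every class, whereas Avp, Oxt, Gm47283, Ttr, Gng8 lie below -2.

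Serpina3n (chr12:104406729-104414329, GRCm38), which encodes a secreted serine protease inhibitor that astrocytes and oligodendrocytes induce in injury and inflammation, was higher in E4 in every class. It had 21.5, 8.07 and 14.1 CPM in the Slc17a7, Slc17a6 and equal-or-neither classes of E3 and 127.2, 98.2 and 98.5 CPM in those of E4. The lowest E4 sum lay above the highest E3 sum with no overlap of the intervals. The ratios were 5.91-fold, 12.2-fold and 6.98-fold (log2 2.56, 2.44 to 2.69; 3.61, 3.24 to 4.0; 2.80, 2.21 to 3.45). The excess in the Slc17a6 class over the Slc17a7 class was itself beyond counting error, at 1.04 (0.65 to 1.45). A Serpina3n UMI was found in 16.3% (14.9% to 17.8%) of the spots of E3 and 74.0% (72.1% to 75.8%) of the spots of E4, whose median depths were 13702.5 and 15809 UMIs. It was also called higher in all 13 clusters of spots in which it had 20 or more UMIs, and its ratios stayed at 2.43, 3.36 and 2.54 with the same cluster weights.

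Ctxn3, which encodes a small membrane protein of the cortexin family, had the highest median over the 3 classes, although Serpina3n was above it in the Slc17a7 class and, with the same cluster weights, in the Slc17a6 class too. Its levels were 2.05, 6.33 and 3.13 CPM in E3 and 8.75, 122 and 36.0 CPM in E4, in the class order above. Unlike Serpina3n it was uneven across the tissue: 76.8% of its E4 UMIs lay in the 5% of spots with most of them, and the ratio of the Slc17a6 class went from 4.26 (3.86 to 4.70) to 2.39 with the same cluster weights.

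Of the genes that glucocorticoids and cell stress are known to induce, Sgk1, Arrdc2 and Txnip were called higher in every class. Sgk1, a kinase of ion transport and stress signalling, had 91.4, 100.4 and 137 CPM in E3 and 153, 176 and 266 CPM in E4. Its log2 ratios of 0.74 (0.67 to 0.81), 0.81 (0.68 to 0.94) and 0.95 (0.73 to 1.18) overlapped between classes, and 12 of 14 clusters were called the same way. Arrdc2, an arrestin-domain gene, had ratios of 0.74, 0.72 and 1.32. Txnip, a thioredoxin inhibitor that restrains glucose uptake, had ratios of 0.62, 0.85 and 1.43, of which the first was under the fold (0.57) with the same cluster weights. In the list of 16 glucocorticoid response genes, 3 of 16 tested were called higher and 1 lower in the Slc17a7 class, 3 of 15 higher in the Slc17a6 class and 3 of 10 higher in the last. Over all tested genes the shares called higher were 1.29%, 3.73% and 2.72%. The list medians were 0.27, 0.13 and 0.20, beside 0.00, -0.06 and -0.01 over all tested genes. The called members beyond Sgk1 and Arrdc2 were Pdk4, a brake on glucose oxidation, at 0.81 and 1.41 in the Slc17a7 and Slc17a6 classes, and Cdkn1a, a cell cycle inhibitor, at 1.68 in the last, while Plin4, a lipid droplet gene, was lower at -0.78 in the Slc17a7 class. Fkbp5, Tsc22d3 and the other members were not called. Of the heat shock and chaperone list, with 20, 20 and 15 members tested, none was called higher in any class. In the Slc17a6 class 2 were lower, and the medians were -0.02, -0.08 and -0.06.

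Tnnt1, a troponin gene that also marks thalamic neurons, had 15.3, 39.7 and 29.8 CPM in E3 and 33.0, 96.8 and 124 CPM in E4. It was higher in E4, with ratios of 1.11, 1.28 and 2.06 that went to 1.60, 2.21 and 2.32 with the same cluster weights. The thalamic list, of which Tnnt1 is the highest member, had medians of -0.62, -0.87 and -0.19, or -0.24, 0.03 and -0.03 with those weights. Bex1, an X-linked gene of neuronal growth factor signalling, had 78.4, 115 and 99.2 CPM in E3 and 127.3, 232 and 166 CPM in E4, ratios of 0.70, 1.01 and 0.75. Zfas1, a small nucleolar RNA host gene, had ratios of 0.60, 1.06 and 0.70. All 3 were called in each class with the same cluster weights too. Arl4d, a small GTPase gene, had ratios of 0.73, 1.54 and 0.65. Enkur, a gene of motile cilia, and Nts, the neuropeptide neurotensin, were uneven, at 0.62, 1.79 and 2.6 and at 0.59, 1.87 and 0.85. The gene models Gm10076 (0.83, 1.66 and 1.26) and AC149090.1 (0.94, 0.83 and 0.98) completed the list, and since such models can share reads with near-identical copies their values are uncertain.

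Promoters are shown for the 3 shared higher genes among Serpina3n, Sgk1, Txnip and Bex1 for which RefSeq (GRCm38.p6) lists a single start, 250 bases before to 50 bases after it, so that the sequence that starts these transcripts can be read beside their levels. Of the 31 shared genes, 23 are in the table. Capitals mark matches on either strand to 4 motifs. The TATA box, searched as TATAAA, occurs in 13.6% of the 32851 promoters of the same length in that table. The E-box, searched as CACGTG, occurs in 7.15%. The STAT motif, searched as TTCNNNGAA, occurs in 8.3%, and the CCAAT box, searched by its name, in 37.4%. Serpina3n, chr12:104406458-104406757, plus strand, had no match.
Serpina3n: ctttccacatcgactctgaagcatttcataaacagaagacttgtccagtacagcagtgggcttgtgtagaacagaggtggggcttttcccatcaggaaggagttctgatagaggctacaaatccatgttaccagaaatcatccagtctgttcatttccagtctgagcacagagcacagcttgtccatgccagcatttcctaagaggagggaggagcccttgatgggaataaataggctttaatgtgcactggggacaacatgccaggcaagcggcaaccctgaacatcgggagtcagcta
Bex1, chrX:136215464-136215763, minus strand, had 1 E-box match.
Bex1: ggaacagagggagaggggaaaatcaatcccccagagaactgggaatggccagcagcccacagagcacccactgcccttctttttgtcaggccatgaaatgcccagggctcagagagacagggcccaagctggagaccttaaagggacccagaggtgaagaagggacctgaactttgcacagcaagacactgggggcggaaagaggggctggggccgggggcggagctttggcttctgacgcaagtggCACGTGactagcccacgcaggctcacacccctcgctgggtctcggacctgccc
Txnip, chr3:96557707-96558006, plus strand, had 2 CCAAT box matches.
Txnip: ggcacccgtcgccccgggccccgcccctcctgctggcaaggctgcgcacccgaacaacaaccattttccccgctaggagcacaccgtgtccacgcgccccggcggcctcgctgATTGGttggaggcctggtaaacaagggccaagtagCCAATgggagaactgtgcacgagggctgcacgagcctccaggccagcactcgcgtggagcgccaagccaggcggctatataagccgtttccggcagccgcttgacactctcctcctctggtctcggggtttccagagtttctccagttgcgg
The matches are descriptions of these windows and were not tied to the ratios.

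The most negative shared ratios were those of 2 hypothalamic hormones. Avp, the precursor of vasopressin, had 72.3, 111 and 96.1 CPM in E3 and 0.77, 0.71 and 4.72 CPM in E4, on 1970, 891 and 184 UMIs against 21, 5 and 8. Oxt, the precursor of oxytocin, had 616, 418 and 106 UMIs against 12, 3 and 1. Their log2 ratios were -6.56, -7.28 and -4.35 for Avp and -5.69, -6.92 (-9.20 to -5.36) and -6.55 (-11.87 to -4.04) for Oxt, the last 2 on 3 and 1 UMIs in E4. Both are made by cell groups of the hypothalamus, yet were seen widely: Avp was found in 57.1% of all E3 spots, and the 5% of spots with most of it held 30.6% of its UMIs. Avp was called lower in all 14 clusters and Oxt in all 13 with enough UMIs. How far the plane of section and the spots without values went with these ratios was not tested.

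Members of the hypothalamic list were called in both directions. Of the hypothalamic list, 7 of 19 members tested in the Slc17a7 class were lower and 1 higher, 7 of 18 lower and 2 higher in the Slc17a6 class, and 5 of 14 lower in the last, with medians of -0.02, -0.07 and 0.03. With the same cluster weights the medians were -0.01, -0.72 and -0.04. Hcrt, the orexin precursor of the lateral hypothalamus, was lower at -2.54 and -3.56 in the Slc17a7 and Slc17a6 classes, and Trh, the thyrotropin-releasing hormone precursor, at -1.16, -2.09 and -0.82. Trh in the last class came to 0.02 when every spot weighed the same. Agrp, a hunger peptide of the arcuate nucleus, went the other way, with 3 UMIs in E3 and 63 in E4 in the Slc17a7 class, a ratio of 4.39 (2.78 to 6.70), and Resp18, a secretory granule gene, was higher at 0.81 in the Slc17a6 class. The hormones made outside the brain, Prl and Gh of the pituitary, were also lower in the Slc17a7 class, at -1.52 and -1.53 on 195 against 68 and 130 against 45 UMIs.

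Ttr, which encodes the thyroxine carrier secreted by choroid plexus, had 5904, 1389.6 and 1879 CPM in E3 and 527, 112 and 409 CPM in E4. It was lower in every class (-3.49, -3.63 and -2.20, or -2.19, -3.19 and -1.72 with the same cluster weights) and in all 14 clusters, and 82.0% of its UMIs in E3 lay in the 5% of spots with most of it, while 99.1% of E3 spots held at least 1. The whole choroid plexus list moved with it: 12 of 12 tested members were lower in the Slc17a7 class, with a median of -2.64 that went to -1.19 with the same cluster weights. In the Slc17a6 class 4 of 8 were lower and 1 higher, and in the last 1 of 4 was lower and 1 higher. Gng8, a G protein subunit gene of the medial habenula, was lower at -3.80, -3.07 and -2.47, or -1.20, -2.36 and -1.55 with the same cluster weights, and the habenular neuropeptide gene Tac2 at -1.43, -0.71 and -0.96, which the same cluster weights took to -0.18, 0.22 and -0.19. The habenular list gave 9 of 9 lower in the Slc17a7 class (median -3.27, or -1.14 with the same cluster weights), 5 of 7 in the Slc17a6 class and 2 of 3 in the last. Gpr151, a receptor gene of habenular neurons, had 277 and 129 UMIs in the first 2 classes of E3 and 12 and 8 in E4.

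Outside these regions, 2 lower genes stood alone. Gm47283 is a gene model that GENCODE places on chromosome Y (chrY:90784738-90816464, GRCm38), although both mice were female. It had 41.1, 37.1 and 36.6 CPM in E3 and 2.05, 1.43 and 4.13 CPM in E4. Like the gene models above, it can share reads with near-identical copies, so its values are uncertain. Its level in E3 hardly differed between classes, and it was called lower in all 13 clusters with enough UMIs (log2 -4.33, -4.70 and -3.15). Wdfy1 (chr1:79702262-79776143), which encodes an endosomal adaptor of Toll-like receptor signalling, had 31.5, 39.1 and 48.6 CPM in E3 and 9.85, 9.85 and 10.6 CPM in E4. Its ratios of -1.68 (-1.88 to -1.48), -1.99 (-2.39 to -1.61) and -2.19 (-3.01 to -1.46) overlapped, 12 of 13 clusters were called lower, and the values with the same cluster weights were -1.65, -2.38 and -2.41. Cmip, a signalling adaptor gene, was lower at -0.68, -0.64 and -1.34, and at -0.74, -1.02 and -1.39 with the same cluster weights.

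The remaining shared lower genes were regional or cell-type genes. Spp1, osteopontin, had ratios of -0.90, -2.30 and -1.43, Chrna4, a nicotinic receptor subunit gene, -0.59, -1.47 and -0.97, Nexn, an actin-binding gene, -1.44, -1.38 and -0.91, and Synpo2, an actin-binding gene listed here among thalamic markers, -0.96, -0.93 and -0.67. Scn4b, Rasd2, Syndig1l and Six3 are striatal genes, and Six3, a transcription factor, had -0.93, -1.64 and -1.49. With the same cluster weights the call was lost in at least 1 class for Chrna4, Nexn, Synpo2, Scn4b, Rasd2, Syndig1l, Six3, Spp1 and Cox7a1, a subunit gene of respiratory complex IV, and Six3 came to 0.05 in the Slc17a7 class. The striatal and amygdalar list as a whole gave 10 of 15 lower in the Slc17a7 class, 5 of 14 lower and 1 higher in the Slc17a6 class and 9 of 11 lower in the last, with medians of -0.69, -0.52 and -1.01 that went to -0.19, -0.26 and -0.25 with the same cluster weights. Penk and Ppp1r1b, markers of striatal projection neurons, had 741 and 264 UMIs in the equal-or-neither class of E3 and 257 and 105 in that of E4.

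Shifts particular in size to 1 class were taken as those called there and differing by at least 1.5-fold, beyond counting error, from both other classes, so that a gene such as Tnnt1 could be called in another class as well. There were 9 in the Slc17a7 class (0.102% of 8809), all lower, 161 in the Slc17a6 class (1.83%), 42 higher and 119 lower, and 108 in the equal-or-neither class (1.23%), 64 higher and 44 lower. With the same cluster weights 3 of the 9, 40 of the 161 and 77 of the 108 were called the same way in their class. Depth behind the 3 counts differed widely: the median was 1369 and 739 UMIs for the genes of the first 2 classes, and 90.5 for those of the last, where 64 of 108 had under 100 UMIs. Among genes with 200 or more UMIs in every class, 3, 60 and 7 remained by the same rule.

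**Figure D3:**
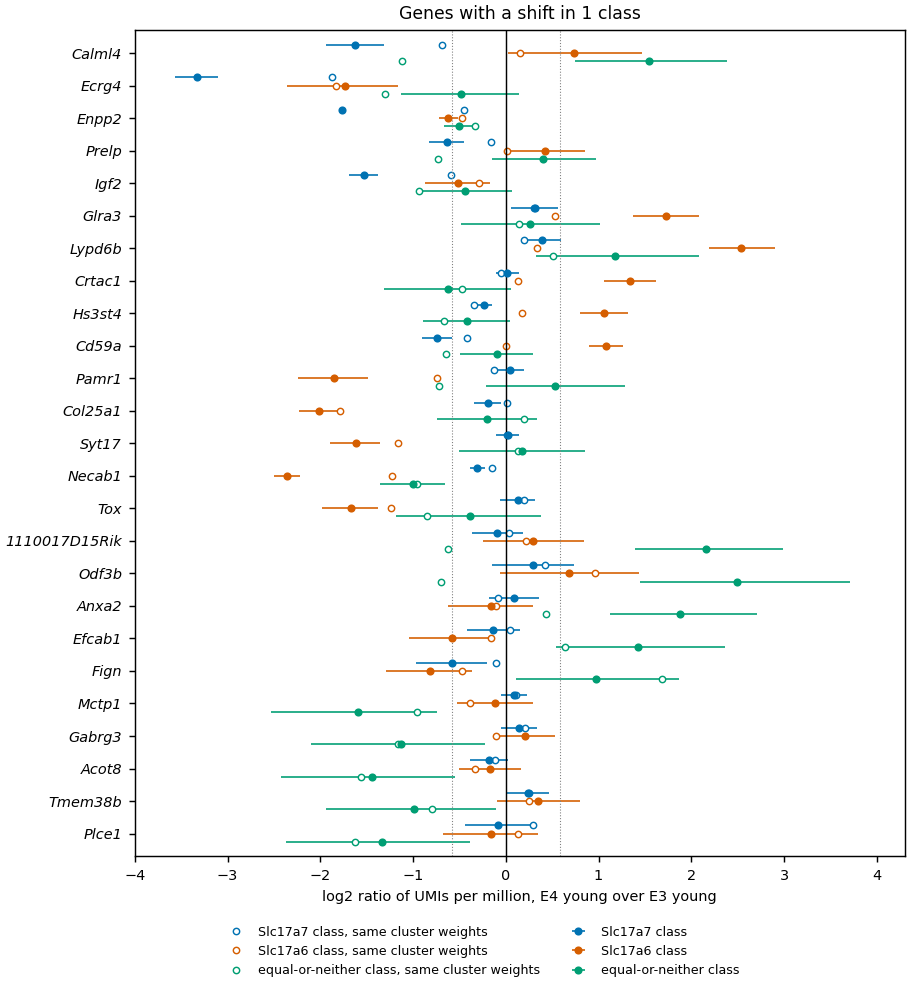
Log2 ratio of E4 young over E3 young in the 3 classes (blue, orange and green as before) for the genes with the largest distance to the nearer other class, 5 per class and direction; filled points with bars are UMI sums with 95% counting intervals, and open points are the values with the same cluster weights. In the class that a gene is named for, open points of the Slc17a7 and Slc17a6 class genes lie nearer to 0, from -1.88 for Ecrg4 to 0.53 for Glra3. In the other classes some lie farther from 0, such as Ecrg4 in the last class (-1.30 against -0.49).

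The 5 genes named as lower in the Slc17a7 class than in the others include choroid plexus and leptomeningeal markers, of which Enpp2 and Ecrg4 were called lower in the Slc17a6 class too, by less. Enpp2, autotaxin, had 727, 271 and 435 CPM in E3 and 215, 177 and 307 CPM in E4, and its ratio of -1.76 in the Slc17a7 class stood apart from -0.62 and -0.50 in the others. With the same cluster weights it came to -0.45, -0.48 and -0.33. Ecrg4, a choroid plexus secreted peptide gene, was at -3.33, -1.74 and -0.49, and at -1.88, -1.83 and -1.30 with the same cluster weights. Igf2, a growth factor of choroid plexus and meninges, was at -1.53, -0.52 and -0.43, and at -0.59, -0.29 and -0.94 with those weights. Calml4, a calmodulin-like gene, was lower in the Slc17a7 class (-1.62) and called higher in the Slc17a6 (0.74) and last (1.54) classes, the last on 19 against 49 UMIs and at -1.12 with the same cluster weights. Prelp, a meningeal matrix gene, was at -0.63 there and at 0.42 and 0.41 elsewhere, neither of which was called, while with the same cluster weights it was at -0.16, 0.02 and -0.73 and was called in the last class. The difference of the Slc17a7 class from both others was thus lost for these genes with those weights, or turned. The leptomeningeal list gave 4 of 13 lower in the Slc17a7 class, with a median of -0.36.

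In the Slc17a6 class, the 5 genes named as lower than in the other classes are neuronal. Necab1, a calcium-binding protein gene, had 97.2, 349 and 117 CPM in E3 and 78.7, 68.2 and 58.4 CPM in E4, ratios of -0.31, -2.35 and -1.0. Its level in the Slc17a6 class thus stood above the Slc17a7 class in E3 and below it in E4. Col25a1, a membrane collagen gene, was at -2.01 in the Slc17a6 class (120 against 29.8 CPM) and kept -1.78 with the same cluster weights. Pamr1, Tox and Syt17 were at -1.85, -1.67 and -1.62, or -0.75, -1.24 and -1.17 with the same cluster weights, and within 0.13 of 0 in the Slc17a7 class. The thalamic list had 10 of 14 members lower and 1 higher in the Slc17a6 class (median -0.87) and 7 of 14 lower and 1 higher in the Slc17a7 class (median -0.62), and the median of the Slc17a6 class came to 0.03 with the same cluster weights. Prkcd, a kinase gene of dorsal thalamus, had 813 CPM in E3 and 491 CPM in E4 in that class, a ratio of -0.73 that came to 0.14.

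The 5 genes named as higher in the Slc17a6 class than in the others were not called there with the same cluster weights. Lypd6b, a nicotinic receptor modulator gene, had 12.7, 10.2 and 9.40 CPM in E3 and 16.7, 59.3 and 21.2 CPM in E4, ratios of 0.39, 2.54 and 1.18, of which the second came to 0.34. Glra3, a glycine receptor subunit gene, went from 1.72 to 0.53, Crtac1, a matrix protein gene, from 1.33 to 0.13, Hs3st4, a heparan sulfate sulfotransferase gene, from 1.06 to 0.18, and Cd59a, a complement inhibitor gene, from 1.08 to -0.00098. Cd59a was lower in the Slc17a7 class at the same time (-0.74), and 12 genes in all were called in opposite directions in a pair of classes. Of the 6 with the widest spread, Calml4, Lbp, a lipopolysaccharide-binding protein gene, and Otx2, a transcription factor gene, were lower in the Slc17a7 class (-1.62, -1.76 and -1.88) and higher in 1 or both others. Mme, neprilysin, an amyloid-degrading protease, was at -0.83 in the Slc17a7 class and 1.27 in the Slc17a6 class, on 161 against 91 and 33 against 69 UMIs. Nxph4 and Klhl1, neuronal genes, were at -0.84 and -0.78 in the first and 1.12 and 1.07 in the second, and only in the first did Mme and Nxph4 keep a call with the same cluster weights.

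In the equal-or-neither class the higher genes named were 1110017D15Rik (2.16), Odf3b (2.497), Anxa2 (1.88), Efcab1 (1.42) and Fign (0.97), on 18, 9, 19, 16 and 19 UMIs in E3 and 71, 45, 62, 38 and 33 in E4. Of these, 1110017D15Rik and Odf3b came to -0.62 and -0.70 with the same cluster weights and Fign alone kept its call. The list of markers of ependymal cells, the ciliated lining of the ventricles, gave 8 of 8 tested members higher in this class (median 2.03) and 8 of 9 in the Slc17a6 class (1.69), but 1 of 10 in the Slc17a7 class (0.09), and the medians with the same cluster weights were 0.52, 1.28 and 0.36. Ccdc153, an ependymal marker, had 16.2 CPM in E3 and 73.7 CPM in E4 in the last class and 5.09 and 16.4 CPM in the Slc17a6 class. The lower genes named, Mctp1 (-1.59), Acot8 (-1.44), Plce1 (-1.33), Gabrg3 (-1.13) and Tmem38b (-0.99), each rested on 13 to 16 UMIs in E4. The 7 genes of the class with 200 or more UMIs in every class were chosen after their values were seen. They include Gad1, an enzyme of GABA synthesis, at -0.71, the striatal peptide genes Penk at -1.35 and Cartpt at -0.85, and Mast3 at -0.66, all lower, and Tnnt1, Pltp and Slc9a3r1 (0.64), all higher. Of the GABA and interneuron list, 5 of 12 members were lower in this class, 6 of 13 in the Slc17a6 class and 1 of 14 in the Slc17a7 class, with medians of -0.44, -0.49 and -0.04, or -0.18, -0.51 and -0.02 with the same cluster weights.

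**Figure D4:**
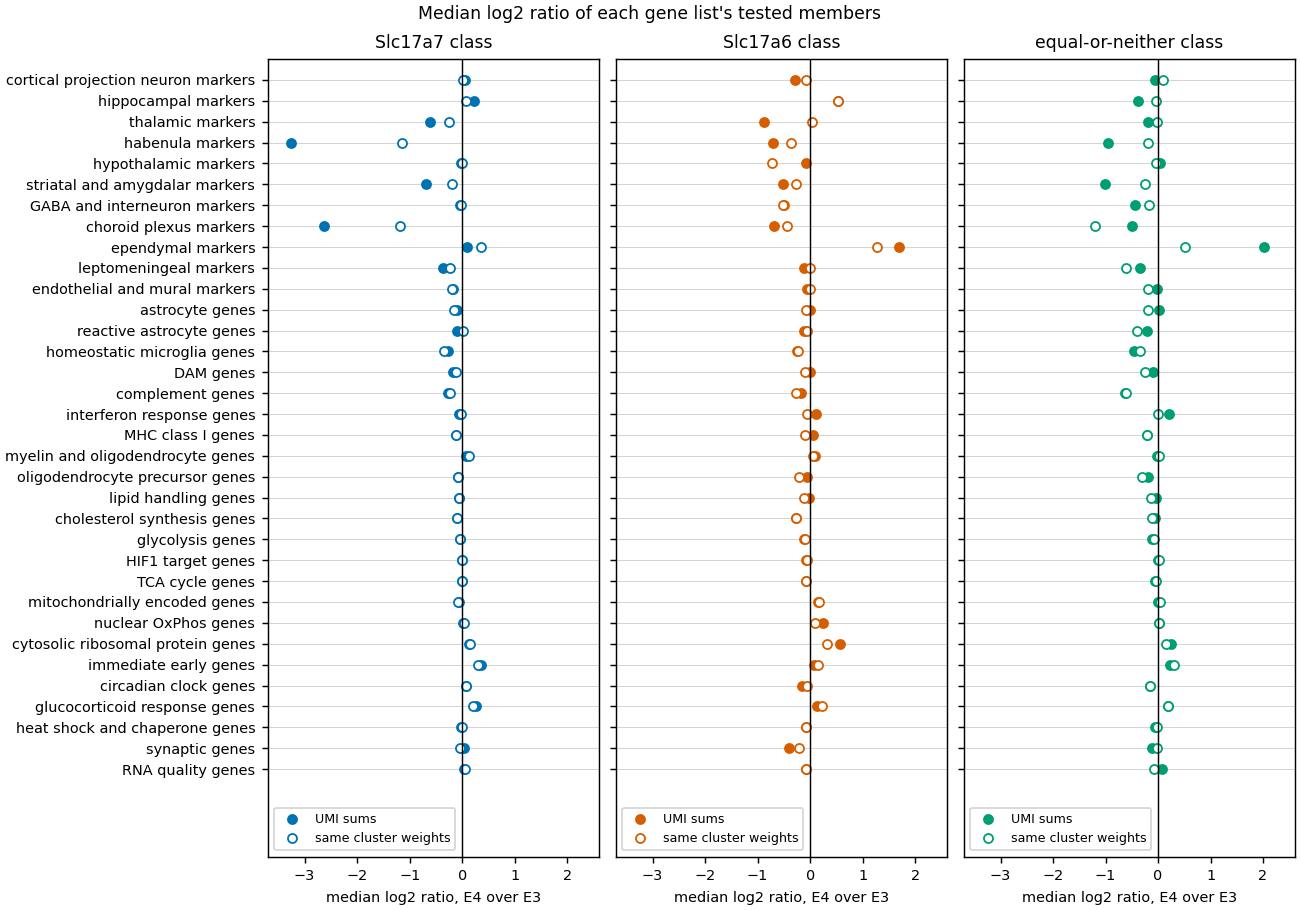
Median log2 ratio of the tested members of each gene list in the 3 classes, from UMI sums (filled) and with the same cluster weights (open). The medians of habenula (-3.27) and choroid plexus (-2.64) markers in the Slc17a7 class and of ependymal markers (1.69 and 2.03) in the other classes stand apart. From UMI sums, astrocyte medians lie between -0.09 and 0.01, and in the equal-or-neither class homeostatic microglia (-0.46) and complement (-0.62) medians lie below 0. With the same cluster weights astrocyte medians lie between -0.19 and -0.08, and those of homeostatic microglia and complement in that class at -0.35 and -0.62.

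Glial and immune lists gave few calls beside the regional ones. Of 17 astrocyte genes none was called in any class, with medians of -0.09, -0.01 and 0.01, or -0.16, -0.08 and -0.19 with the same cluster weights. Of the reactive astrocyte list, Serpina3n was called higher in all classes, and Vim, an intermediate filament gene also of ependyma, was higher at 0.62 in the Slc17a6 class and 0.94 in the last, while Fbln5 was lower at -0.68 and -1.33 in the first 2 classes, and the list medians were -0.10, -0.13 and -0.20. Homeostatic microglia genes were more often below than above 0, with 14 of 15, 13 of 15 and 10 of 12 tested members below 0. In each class 2 were called lower, beside 2.83%, 6.0% and 2.56% of all genes tested. Those called were Fcrls (-0.79) and P2ry13 (-0.62) in the Slc17a7 class, Cx3cr1 (-0.64) and Fcrls (-0.70) in the Slc17a6 class and Csf1r (-0.79) and Selplg (-0.84) in the last. Medians were -0.26, -0.25 and -0.46, and -0.34, -0.24 and -0.35 with the same cluster weights. C1qa and C1qc, complement subunit genes of microglia, had 198 UMIs each in the last class of E3 and 103 and 91 in E4, ratios of -0.77 and -0.95, and were not called in the other classes. Of the complement list 0 of 11, 0 of 8 and 3 of 6 were called, all lower, with medians of -0.27, -0.17 and -0.62, or -0.24, -0.26 and -0.62 with the same cluster weights. The third call was C4b, a complement gene also on the reactive astrocyte list, at -1.10.

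Of the 34 disease-associated microglia (DAM) genes, 4 of 28, 3 of 24 and 1 of 18 were called lower, beside 2.83%, 6.0% and 2.56% of all genes tested in these classes. Higher were 0, 1 and 1, the higher one being Apoc1, a small apolipoprotein gene next to Apoe, at 0.72 and 0.65. The list medians were -0.17, -0.01 and -0.09, or -0.12, -0.11 and -0.24 with the same cluster weights. Spp1 (above) had the lowest ratio of the list in the last 2 classes. MHC class II genes, which present antigen and are strong in border macrophages and choroid plexus stroma, gave 4 of 6 lower in the Slc17a7 class (median -1.38, or -0.26 with the same cluster weights): Cd74 had 160 UMIs in E3 and 62 in E4, H2-Ab1 90 and 30. Among interferon response genes Ifit3 (0.63) and Ifit1 (1.10) were higher in the Slc17a7 class, on 89 against 138 and 28 against 60 UMIs, and the list median there was -0.06. In the Slc17a6 class 1 of 10 was higher and 1 lower (median 0.11), and in the last 1 of 4 was higher (median 0.20). Blood genes were higher in 2 of 4 members in the Slc17a6 class, Hbb-bs at 1.41 and Hba-a1 at 1.10.

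Lipid and energy genes, which were central to the study's question, gave few calls. Of 25 cholesterol synthesis genes 0, 1 and 0 were called in the 3 classes, Hsd17b7 being lower at -0.99 in the Slc17a6 class, with list medians of -0.09, -0.28 and -0.06. None of the 21 listed TCA cycle genes and none of the 69 listed nuclear OxPhos genes tested was called in any class. Cox7a1, which is not on that list, was lower in each (above). Yet in the Slc17a6 class 59 of 69 nuclear OxPhos genes were above 0 (median 0.25, or 0.10 with the same cluster weights). In the other classes 38 and 40 of 69 were above 0 (medians 0.02 and 0.02). Of the mitochondrially encoded genes 13 of 13 were above 0 in the Slc17a6 class (median 0.14, or 0.16 with those weights), 2 of 13 in the Slc17a7 class and 8 of 13 in the last. Glycolysis genes gave 1 call each in the last 2 classes. These were Pfkfb3, which makes an activator of glycolysis, at 1.01 and Slc2a1, the glucose transporter GLUT1, at 0.60. Of the lipid handling list 1 of 27 was lower in the Slc17a7 class, 3 of 27 lower and 1 higher in the Slc17a6 class, and 2 of 22 higher in the last. Of all genes tested 2.83% and 6.0% were lower in the first 2 classes and 2.72% higher in the last. Among them Pltp, a phospholipid transfer protein gene also of ependyma, was higher in the last class at 1.10 and came to -0.17 with the same cluster weights. Cyp46a1, the enzyme by which neurons turn over cholesterol, was lower at -0.59 in the Slc17a6 class. Of 29 myelin and oligodendrocyte genes at most 3 were called in a class, and the medians were 0.08, 0.09 and -0.02.

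Cytosolic ribosomal protein genes were all above 0 in the Slc17a6 class, where 23 of 62 were called higher, beside 3.73% of all genes tested there. Their median was 0.56 in the Slc17a6 class, against 0.14 and 0.25 in the other classes with no call. Rps24 and Rpl37 had 6717 and 10210 UMIs in that class in E3 and 10250 and 14489 in E4, ratios of 0.81 and 0.71. The median came to 0.31 with the same cluster weights, 0.15 and 0.16 in the other classes. Synaptic genes went the other way in the Slc17a6 class, where 27 of 30 were below 0 and 3 were called lower, Syn2 at -0.87, Sv2b at -0.93 and Shank1 at -0.60 (median -0.40, or -0.21 with the same cluster weights). Immediate early genes, which neurons switch on within minutes of activity, were above 0 for 25 of 27 members in the Slc17a7 class (median 0.35), with Nr4a1 (0.65), Fos (0.71) and Egr2 (1.28) called. In the Slc17a6 class 1 was higher (Nr4a2, 0.93) and 2 lower (Jun, -0.67, and Sik1, -0.77), and in the last 6 of 19 were higher and 1 lower. Over all tested genes 1.29%, 3.73% and 2.72% were called higher in the 3 classes and 2.83%, 6.0% and 2.56% lower.

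The same rule was run on the other pairs to see where the shared genes stood. In the aged pair 15 genes were called higher (0.183% of 8183) and 6 lower (0.0733%) in all 3 classes, and in the 5xFAD pair 13 higher (0.146% of 8896) and 36 lower (0.405%). Of the 31 genes shared in the young pair, 5 were called the same way in all classes of the aged pair and 2 in the 5xFAD pair, and those 2, Serpina3n and Gm47283, were the same in both. The other 3 of the aged pair were Tnnt1, Zfas1 and Wdfy1. Calls of a class on its own often turned. Of the Slc17a7 class genes called lower, 25 of 351 were lower and 97 higher in the aged pair. In the 5xFAD pair 39 of 388 were lower and 96 higher. In the Slc17a6 class, 13 of 338 higher genes were higher and 82 lower in the 5xFAD pair. Of 658 lower genes there, 21 were lower and 124 higher. In the aged pair same calls outnumbered opposite ones in that class, at 28 to 6 and 32 to 23. These pairs share no section with the young pair, but each again holds 1 mouse per genotype of the same lines.

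**Figure D5:**
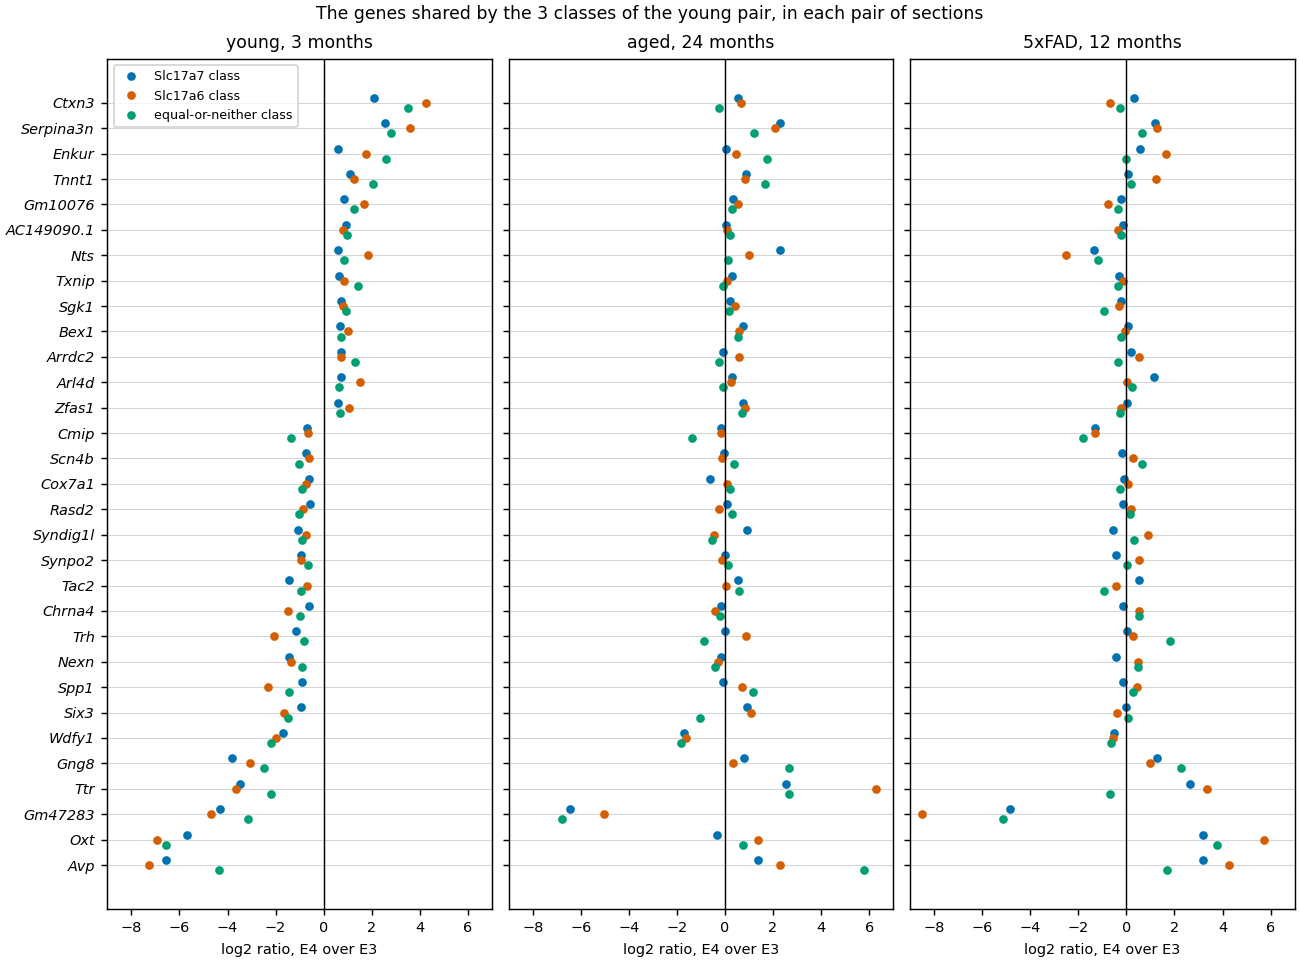
Log2 ratio of E4 over E3 in each class for the 31 genes shared by the classes of the young pair (left), in the aged pair (middle) and in the 5xFAD pair (right), with 1 section per genotype in each. In every class of all 3 pairs Serpina3n and Tnnt1 lie above 0 and Gm47283, Wdfy1 and Cmip below 0. Avp, Oxt and Ttr change side.

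Serpina3n was at 2.30, 2.07 and 1.19 in the aged pair and at 1.19, 1.26 and 0.63 in the 5xFAD pair, where the E3 levels were higher (66.9, 86.6 and 124 CPM) than in the young E3 section. Gm47283 was at -6.44, -5.05 and -6.78 and at -4.83, -8.53 and -5.12. Wdfy1 had -1.72, -1.62 and -1.85 in the aged pair, near its young ratios, and -0.50, -0.55 and -0.62 in the 5xFAD pair, of which the last was called. Zfas1 was at 0.75, 0.82 and 0.69 in the aged pair and 0.03, -0.25 and -0.25 in the 5xFAD pair, and Bex1 at 0.73, 0.59 and 0.53 and at 0.08, -0.06 and -0.22. Tnnt1 was at 0.89, 0.84 and 1.67 in the aged pair and 0.08, 1.22 and 0.19 in the 5xFAD pair, where only the Slc17a6 class was called. Cmip was called lower in the first 2 classes of the 5xFAD pair (-1.29 and -1.30). Sgk1, Arrdc2 and Txnip were not called higher in any class of either pair. Sgk1 was at 0.19, 0.42 and 0.15 in the aged pair and -0.21, -0.33 and -0.93 in the 5xFAD pair. Ttr was at 2.54, 6.29 and 2.68 in the aged pair and 2.64, 3.36 and -0.67 in the 5xFAD pair, and Avp at 1.38, 2.30 and 5.77 and at 3.18, 4.27 and 1.68. The genes of choroid plexus and hypothalamus thus had opposite signs in different pairs of sections, and the difference between pairs was not tested.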

How the data were processed

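Visium libraries of 6 coronal sections, 1 per group, were used as deposited. The values are deposited counts, the number of UMIs for each gene under each spot barcode, which the authors made with Space Ranger 1.3.0 and STAR 2.5.1b per the labels, on mm10 and GRCh38. Per the file headers the young matrices were written by Space Ranger 1.2.2. Only the 32285 mouse rows were summed, and human APOE was read separately. Groups came from the sample titles. Spots lay in the deposited tissue mask with at least 1000 mouse UMIs, and 2187 barcodes served in both young sections, since slides share a barcode list. CPM carried exact Poisson intervals and ratios exact conditional binomial intervals (scipy 1.17.1), and a difference between ratios combined the limits of both. Where a sum was 0 UMIs, 0.5 stood in the ratio. The young pair, with 1 section a genotype, allowed no test across samples, and none was run over the 3 pairs, which differ in age and in the 5xFAD transgenes. Spots were put in 20 k-means clusters on 20 principal components of 3000 genes centred within section (scikit-learn 1.9.0), and those with at least 15 spots of a class in both sections entered the same cluster weights (12, 4 and 4 clusters). Ratios in single clusters were added after the data were seen. The rule for named genes took the 12 highest and 12 lowest shared genes, 5 per class and direction, 6 of opposite calls and, per list, up to 4 called members with the most UMIs or 2 where none was called. Genes named beyond it were chosen after their values were seen. The members and gene lists were chosen with earlier results of these data known. Positions are those of GENCODE vM21 by gene ID, for 32235 of the 32285 IDs. Scripts were tested on simulated counts. Some marker genes are not reported here.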

Additional observations from a re-analysis of the deposited data

Results flagged for a closer look

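Some shared shifts of the young pair ran the other way in all 3 classes of another pair, a difference between pairs of sections that was not tested. Oxt, lower in the E4 young section, was higher in the E4 5xFAD section with a median log2 ratio of 3.78 over the classes, and Avp likewise with 3.18. Nts, higher in the young pair, was lower in the 5xFAD pair at -1.33. Ttr, lower in the young pair, was higher in the aged pair at 2.68. Outside the tissue mask, and so in no comparison above, 172 barcodes of the E3 young section and 336 of the E4 young section held at least 1000 mouse UMIs.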

How the results depend on the processing

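No paired analysis was possible because the young pair holds 1 section a genotype, and no replicate could be left out. A fit over the 3 pairs was not run. Requiring 2-fold gave 195, 309 and 109 called genes in the Slc17a7, Slc17a6 and equal-or-neither classes (591, 1184 and 466 at 1.5-fold), 3 shared higher, 6 shared lower, and 4, 21 and 28 of 1 class. The looser fold tried gave 1442, 2855 and 847, then 39 and 63, then 35, 559 and 178. With at least 200 UMIs there were 239, 684 and 69 called genes, 6 and 5 shared, and 3, 60 and 7 of 1 class. With at least 20 UMIs 23 were shared higher, and 30 stood in the Slc17a7 class alone. With every spot weighing the same, 1167 were called in the last class, 24 were shared higher, and 1, 105 and 552 stood in 1 class. The same cluster weights gave 729 calls in the last class, 9 shared lower, and 1, 52 and 290 of 1 class. The stricter class rule gave 355 of the Slc17a6 class alone, and every barcode 17 of the Slc17a7 class alone. Signs turned with the same cluster weights for Six3 in the Slc17a7 class (0.047), Tac2 (0.22), Cd59a (-0.00098) and the thalamic median (0.029) in the Slc17a6 class, and Calml4 (-1.12), 1110017D15Rik (-0.62), Odf3b (-0.70) and Lbp (-0.50) in the last. In that class they also turned for Trh with every spot weighing the same (0.018) and for the habenular median with at least 200 UMIs (0.059). In total, pooled over the alternatives, 964 of 1088 named gene values stayed within their intervals and 8 changed sign. The alternatives differed widely. With the same cluster weights only 71 of 136 stayed, 58 moved out of their intervals and 7 changed sign. With every spot weighing the same 101 of 136 stayed. The causes were not tested. Depth limits the last class most.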
